A study of Mus musculus with 6 samples.

Results

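Cathepsins are proteases of the endosome and lysosome. The set described here holds 10 of the 24421 genes in the deposited count table of a mouse RNA sequencing series, taken by symbol: Ctsa, Ctsb, Ctsc, Ctsd, Ctsf, Ctsh, Ctsk, Ctsl, Ctss and Ctsz. All 10 passed the filter on low counts, among 14417 genes tested. RNA came from primary wild-type neural stem cells, derived from C57BL/6 mice aged 60 days after birth. They are cells of the subventricular zone, the lining of the lateral ventricles that keeps forming neurons in the adult. Every culture received EGF and FGF2, both at 20 ng/ml. The treated group (3 libraries) was given PluriSIn#2, a topoisomerase IIA inhibitor, at 20 µM for 3 days, with a medium change at 24 h. The control group (3 libraries) was given the solvent DMSO over the same time. The labels do not state whether replicates were separate cultures or animals. The p-values therefore cover only how far these libraries spread, and that spread may be technical. For treated replicates 2 and 3, another label field gives a different number after PluriSIn than the title does, and titles set the groups.

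Cathepsins are made as inactive precursors, are tagged with mannose 6-phosphate or bound by sorting receptors, and are activated when the proton pump of the lysosome acidifies the compartment. They fall into 3 catalytic classes in this set: the aspartic protease Ctsd, the serine carboxypeptidase Ctsa, and 8 cysteine proteases of the papain family. In brain, lysosomal proteolysis is known for clearing protein aggregates and membrane proteins, and quiescent neural stem cells are known for large lysosomes. Cystatins, small proteins that plug the active site of papain-like enzymes, hold the cysteine cathepsins in check outside the lysosome.

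Total counts were between 16670962 and 17827158 in the PluriSIn#2 libraries and between 18186070 and 19241869 in the DMSO libraries. Of the genes tested, 82.6% were called in edgeR's quasi-likelihood test at an adjusted p under 0.05, 41.7% higher and 40.9% lower in PluriSIn#2, so a call alone sets no gene apart. All 10 neural stem cell markers on the list were measured in both groups, 4 called higher and 6 lower, with summed levels of 7691 to 7725 CPM (CPM is the read count relative to library size, scaled by TMM) in PluriSIn#2 and 8402 to 8511 CPM in DMSO. Top2a, which encodes the inhibited enzyme and is itself made by dividing cells, averaged 6.01 ± 1.29 CPM in PluriSIn#2 and 878 ± 21.2 CPM in DMSO (SD, n = 3 each).

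Of the 10 cathepsin genes, 9 were called higher and 1, Ctsc, lower in PluriSIn#2. The share of all tested genes called higher was 41.7%. Rises of at least 2-fold were found for 6 of the 10 (Ctsb, Ctsd, Ctsf, Ctsk, Ctsl and Ctss), a class that held 16.3% of all tested genes. Rises of at least 4-fold were found for 5 of the 10 (the same genes without Ctsl), against 5.99% of all tested genes. The median log2 fold change of the 10 genes was 1.69, and that of all tested genes was 0.01. The CPM of the groups did not overlap for any of the 10 genes, which was also the case for 82.7% of the genes tested. Ctss passed the filter only through its PluriSIn#2 libraries, which set its direction. Of the 9 genes above the filter in every library, 8 were called higher and 1 lower. In bulk RNA, fewer cells of a type and less RNA per cell cannot be told apart.

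**Figure D1:**
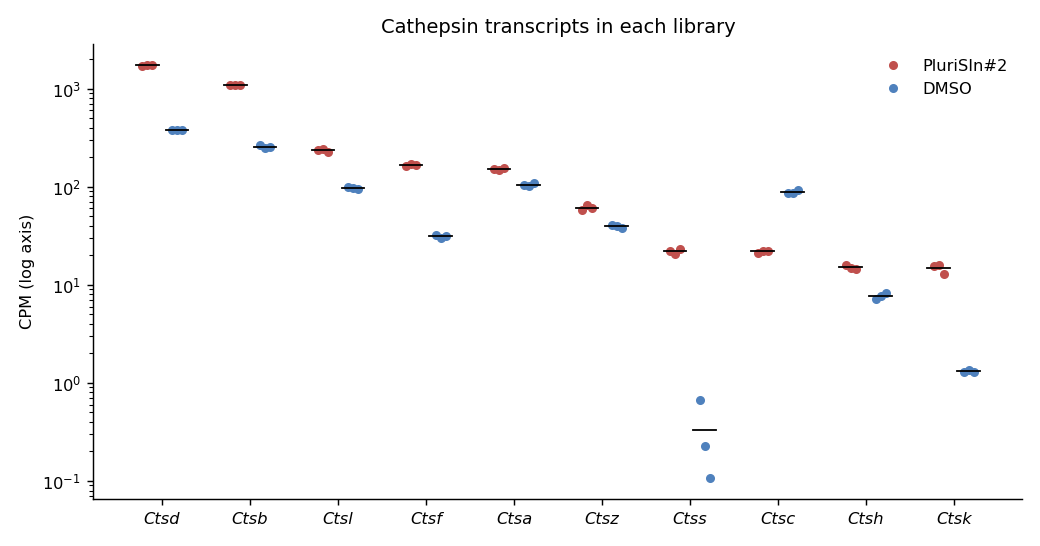
Level of each of the 10 cathepsin genes in CPM (log axis), with 1 point per library and a line at the mean of 3 libraries; PluriSIn#2 stands left of DMSO for each gene. Ctsc is the gene whose PluriSIn#2 points lie below its DMSO points (21.3 to 22.3 against 85.8 to 93.0 CPM), and Ctss shows the widest scatter, in DMSO.

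Ctsd, the lysosomal aspartic protease, whose loss causes a neuronal storage disease, had the most counts of the set. Its level was 1702, 1727 and 1753 CPM in PluriSIn#2, against 379.3, 378.8 and 379.8 CPM in DMSO. All 3 treated libraries lay far above the DMSO libraries, which were nearly equal to each other. The log2 fold change was 2.19 (SE 0.021, edgeR adjusted p = 5.1e-88), a 4.55-fold rise of the mean. Ctsd occupies chr7:142375911-142388038 (minus strand; GENCODE M21 gene spans, 1-based, build GRCm38).

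Ctsa, the serine carboxypeptidase that shields beta-galactosidase and neuraminidase in a shared complex, rose least. It had 151.4, 148.2 and 155.7 CPM in PluriSIn#2, against 103.0, 100.7 and 108.0 CPM in DMSO. The groups did not overlap, and the log2 fold change was 0.55 (SE 0.035, edgeR adjusted p = 3.93e-26). The gene occupies chr2:164832873-164841032 (plus strand).

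Among cysteine cathepsins made by most cell types, Ctsb, Ctsf and Ctsl rose by more than 2-fold. Ctsb, an endopeptidase that also trims dipeptides from the carboxyl end, had 1093, 1097 and 1097 CPM in PluriSIn#2, against 263.9, 249.9 and 254.0 CPM in DMSO. Its log2 fold change was 2.10 (SE 0.023, edgeR adjusted p = 2.19e-83), close to that of Ctsd. Ctsf, a ubiquitously made family member whose human mutations cause a late-onset storage disease, had 161.5, 169.2 and 167.2 CPM in PluriSIn#2, against 32.1, 30.1 and 31.6 CPM in DMSO. Its log2 fold change was 2.41 (SE 0.043, edgeR adjusted p = 8.18e-67). Within the set, Ctsf rose most among the genes with at least 20 CPM in DMSO. Ctsk and Ctss, with lower DMSO levels, rose more. Ctsl, an endopeptidase that activates other lysosomal enzymes, had 235.5, 244.1 and 228.0 CPM in PluriSIn#2, against 99.7, 97.5 and 94.5 CPM in DMSO. The treated libraries again lay above all DMSO libraries, by 1.28 on the log2 scale (SE 0.033, edgeR adjusted p = 2e-54). Ctsb occupies chr14:63122462-63145923 and Ctsf chr19:4855130-4860918 (both plus strand), and Ctsl chr13:64359337-64370890 (minus strand).

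The largest rises were in a pair of neighbours on chromosome 3, Ctsk and Ctss, which had the fewest DMSO reads. Ctsk spans chr3:95499256-95509362 and Ctss chr3:95526786-95556403, both on the plus strand, with 17.4 kb between them. Ctss, the protease that cleaves the invariant chain in antigen-presenting cells, had 391, 372 and 396 reads in PluriSIn#2, against 12, 4 and 2 reads in DMSO. That is 22.1, 20.4 and 23.2 CPM in PluriSIn#2, against 0.672, 0.225 and 0.107 CPM in DMSO. The treated libraries were close to each other, while DMSO replicate 1 had more reads than the other DMSO libraries together. The log2 fold change was 6.02 (SE 0.19, edgeR adjusted p = 3.58e-47), and without DMSO replicate 1 it was 6.99. Because Ctss passed the filter only through PluriSIn#2, its p-value is no separate support for its direction. Ctsk, the collagen-degrading cathepsin of osteoclasts and also of fibroblasts, had 275, 288 and 221 reads in PluriSIn#2, against 23, 24 and 24 reads in DMSO. Its levels were 15.5, 15.8 and 12.9 CPM in PluriSIn#2 and 1.29, 1.35 and 1.28 CPM in DMSO. PluriSIn#2 replicate 3 was the lowest treated library, yet lay well above DMSO. The log2 fold change of Ctsk was 3.49 (SE 0.16, edgeR adjusted p = 1.97e-36). On log2(FPKM + 1), where the pseudocount damps low genes, limma gave 3.81 for Ctss and 2.53 for Ctsk.

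Markers of other cell types also differed between the groups. Of 21 microglia and macrophage markers, Aif1 and Cx3cr1 did not pass the filter on low counts and were not tested. Of the 19 tested, 18 were called higher and none lower, against 41.7% of all tested genes called higher. Of those 19, 15 passed the low-count filter (0.555 CPM in 3 libraries) only through their PluriSIn#2 libraries, which set their direction; of the 4 measured above it in every library, 3 were called higher (Lyz2, Cd68 and Cd14) and P2ry12 was not called. The sum of the list ran from 221 to 230 CPM in PluriSIn#2 and from 11.1 to 12.3 CPM in DMSO. The most abundant of these markers was Lyz2, the lysozyme of myeloid cells, at 81.8 ± 1.77 CPM in PluriSIn#2 and 1.26 ± 0.303 CPM in DMSO (SD, n = 3 each). Among the 15, Trem2, a lipid receptor of these cells, had 543 reads in PluriSIn#2 and 0 in DMSO. Spi1, their lineage factor, had 246 reads in PluriSIn#2 and 1 in DMSO, and Tmem119 had 112 in PluriSIn#2 and 1 in DMSO. Of the 7 osteoclast markers, 3 were tested and 1, Oscar, which passed the filter only through PluriSIn#2, was called higher (1.56 CPM in PluriSIn#2 and 0.510 CPM in DMSO). The list summed to between 38.9 and 40.5 CPM in PluriSIn#2 and between 36.3 and 38.9 CPM in DMSO, mostly from Nfatc1 (35.4 CPM in PluriSIn#2 and 34.5 CPM in DMSO). Dcstamp, which drives osteoclast fusion, had 1 read in each group, Ocstamp had 3 reads in PluriSIn#2 and 9 in DMSO, and Calcr had 7 in PluriSIn#2 and 3 in DMSO. Of 12 pericyte, smooth muscle and fibroblast markers, 11 were tested, 8 called higher and 2 lower. Of the 8 called higher, 4 passed the filter only through PluriSIn#2. The 2 called lower, Pdgfra and Cspg4, are also on the oligodendrocyte lineage list, where all 7 tested markers were called lower. The sums of the 12 markers, Pdgfra and Cspg4 included, were 329 to 330 CPM in PluriSIn#2 and 236 to 246 CPM in DMSO. Cspg4, the most abundant of them and also a marker of oligodendrocyte precursors, had 86.2 ± 2.66 CPM in PluriSIn#2 and 149 ± 3.30 CPM in DMSO. Lum, a fibroblast proteoglycan, had 212 reads in PluriSIn#2 and 2 in DMSO, and Kcnj8 of pericytes had 7 in PluriSIn#2 and 2 in DMSO. The part of these cells in the rise of Ctss, Ctsk or any other cathepsin was not tested.

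Both directions were seen among the other marker lists, beside 41.7% called higher and 40.9% lower over all tested genes. The filter was passed only through PluriSIn#2 by 3 of the endothelial, 3 of the choroid plexus and 5 of the ependymal markers called higher. All 8 astrocyte markers were called higher, with sums of 8279 to 8316 CPM in PluriSIn#2 and 2374 to 2404 CPM in DMSO, led by Sparcl1. Of 10 endothelial markers 8 were tested and 7 called higher, with sums of 34.6 to 38.4 CPM in PluriSIn#2 and 6.30 to 6.98 CPM in DMSO, and Cdh5 led them. Of 8 choroid plexus markers 6 were tested and all 6 called higher, with sums of 525 to 543 CPM in PluriSIn#2 and 12.4 to 14.0 CPM in DMSO, nearly all from Ttr in PluriSIn#2. Of 8 ependymal markers 7 were tested and all 7 called higher (sums of 157 to 159 CPM in PluriSIn#2 and of 38.9 ± 0.926 CPM in DMSO; SD, n = 3), with Foxj1 the most abundant. Of 8 oligodendrocyte lineage markers 7 were tested and all 7 called lower, with sums of 2369 to 2438 CPM in PluriSIn#2 and 2882 to 3016 CPM in DMSO, and Olig1 was the most abundant. All 6 proliferation markers were called lower, with sums of 54.3 to 60.5 CPM in PluriSIn#2 and 2685 to 2740 CPM in DMSO, and Mki67 was the most abundant. Their part in the cathepsin levels was not tested either.

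**Figure D2:**
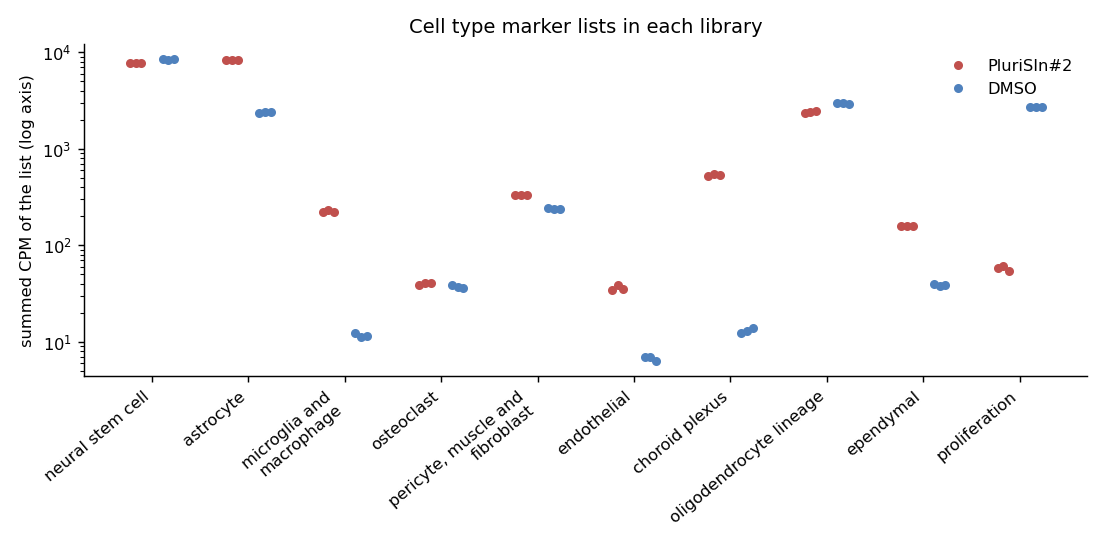
Summed CPM (log axis) of each cell type marker list, 1 point per library, with PluriSIn#2 left of DMSO. The macrophage, choroid plexus, endothelial, ependymal and astrocyte sums were higher in all 3 PluriSIn#2 libraries (macrophage 221 to 230 against 11.1 to 12.3 CPM), and the proliferation sum was lower (54.3 to 60.5 against 2685 to 2740 CPM).

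The papain-like exopeptidases moved in both directions. Ctsc, dipeptidyl peptidase I, which activates the granule serine proteases of immune cells, was the exception of the set. It had 21.3, 21.9 and 22.3 CPM in PluriSIn#2, against 87.0, 85.8 and 93.0 CPM in DMSO. Every treated library lay below every DMSO library, with a mean 4.05-fold lower, a log2 fold change of -2.02 (SE 0.053) and an edgeR adjusted p of 2.87e-53. Ctsh, an aminopeptidase, had 15.9, 14.8 and 14.5 CPM in PluriSIn#2, against 7.17, 7.71 and 8.27 CPM in DMSO (log2 fold change 0.97, SE 0.10, edgeR adjusted p = 1.83e-14). Ctsz, a carboxypeptidase also called cathepsin X, had 57.4, 65.4 and 61.1 CPM in PluriSIn#2, against 40.7, 39.5 and 37.8 CPM in DMSO. Its rise, 0.64 on the log2 scale (SE 0.052, edgeR adjusted p = 4.86e-20), was of the size of that of Ctsa. Ctsc occupies chr7:88278085-88310888 and Ctsh chr9:90054152-90076089 (both plus strand), and Ctsz chr2:174427493-174439039 (minus strand).

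**Figure D3:**
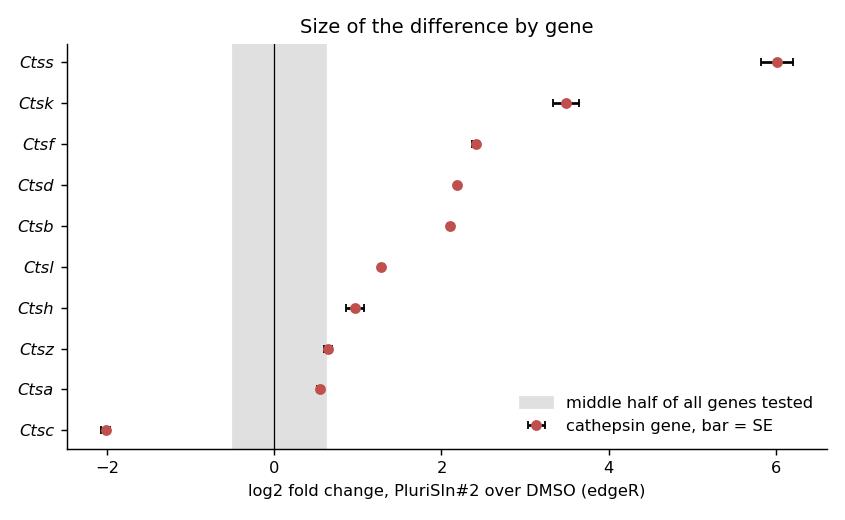
Log2 fold change of PluriSIn#2 over DMSO for the 10 cathepsin genes, with bars for the SE of edgeR's fit over 3 libraries per group; the grey band runs between the quartiles of all tested genes, -0.50 and 0.62. Ctsa (0.55) lies within the band and Ctsz (0.64) at its edge, Ctsc (-2.02) lies below it, and Ctsk (3.49) and Ctss (6.02) lie farthest above it.

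The direction and call of all 10 genes were also found in the authors' deposited table. Its log2 fold changes differed from those of edgeR by at most 0.0237, for Ctss. That table rests on the same 6 libraries, so it is no separate evidence. With treated replicate 1 alone against the 3 DMSO libraries, 9 of the genes were again called higher and Ctsc lower. Exons of Ctsa overlap those of Pltp (495 bp) and Neurl2 (324 bp) on the other strand, those of Ctsb overlap Fdft1 (774 bp), and those of Ctsz overlap Nelfcd (10 bp). The strand setting of the counting is unknown here, and reads from these stretches cannot be assigned with certainty. Ctsd exons also overlap Gm49369 on the same strand (808 bp), and Ctsl exons overlap the antisense gene Gm47123 (1742 bp) and the pseudogene Gm49230 (395 bp).

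Reads of the set made up 0.359% ± 0.00295 of all counts in PluriSIn#2 and 0.0980% ± 0.00109 in DMSO (SD, n = 3 each). Levels of the 10 genes are compared with each other only per length. The measure is the FPKM (reads relative to gene length and library size) that the authors deposited. The summed FPKM of the 10 genes was 1442, 1464 and 1470 in PluriSIn#2, against 401, 394 and 398 in DMSO, 3.67-fold higher on average. The make-up of the pool differed between the groups. Ctsd held 60.8% ± 0.403 of the summed FPKM in PluriSIn#2 and 46.7% ± 0.391 in DMSO. Ctsb held 15.8% to 16.1% in PluriSIn#2 and 12.8% to 13.3% in DMSO, and Ctsf 5.78% ± 0.0834 in PluriSIn#2 and 3.81% ± 0.0912 in DMSO. Ctsc held 0.608% ± 0.00787 in PluriSIn#2 and 8.62% ± 0.355 in DMSO. In the order PluriSIn#2 and DMSO, the shares of Ctsl (8.23% and 11.9%), Ctsa (3.18% and 7.79%), Ctsz (3.07% and 6.85%) and Ctsh (0.640% and 1.14%) were lower in PluriSIn#2 than in DMSO, although all 4 transcripts rose. Those of Ctss (1.11% and 0.0590%) and Ctsk (0.642% and 0.199%) were higher in PluriSIn#2 and remained small; without DMSO replicate 1 the DMSO share of Ctss was 0.0295%. Several shares depend on gene length by more than 1.5 times. With counts per exonic length in place of FPKM, Ctsl held 3.33% in PluriSIn#2 and 5.13% in DMSO, Ctsf 3.01% in PluriSIn#2 and 2.12% in DMSO, Ctsh 0.307% in PluriSIn#2 and 0.587% in DMSO, and Ctsc 0.344% in PluriSIn#2 and 5.22% in DMSO, with no direction changed.

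**Figure D4:**
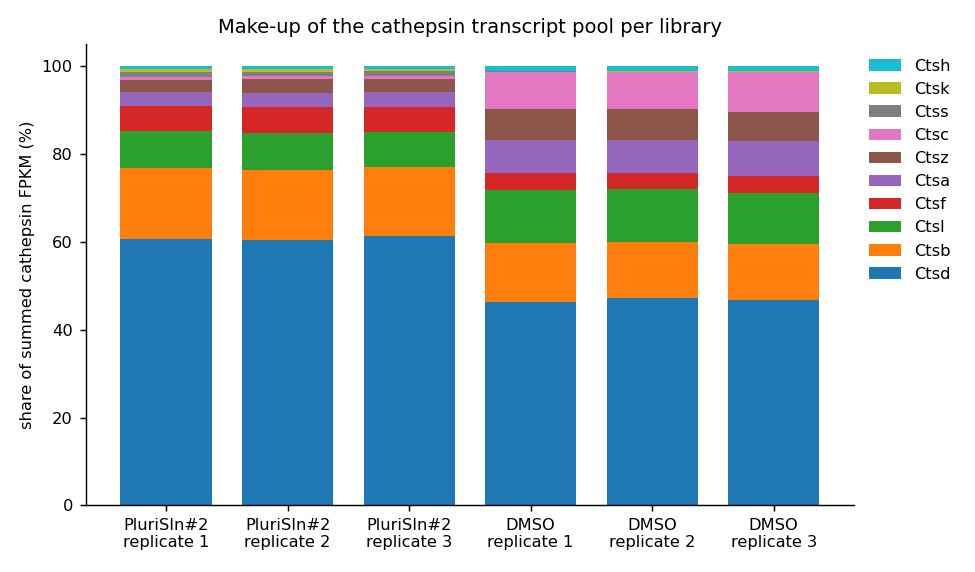
Share of each gene in the summed cathepsin FPKM of a library (percent, stacked to 100), with the 3 PluriSIn#2 libraries left of the 3 DMSO libraries. The Ctsd block is taller in the PluriSIn#2 libraries (60.5% to 61.3%) than in the DMSO libraries (46.3% to 47.1%), and the Ctsc block shrinks to 0.601% to 0.617% in PluriSIn#2, against 8.39% to 9.03% in DMSO.

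The order of FPKM levels differed between the groups. In PluriSIn#2 it ran Ctsd (887 ± 12.7), Ctsb (232 ± 0.212), Ctsl (120.1 ± 4.03), Ctsf (84.3 ± 1.94), Ctsa (46.4 ± 0.960), Ctsz (44.8 ± 2.91), Ctss (16.2 ± 1.05), Ctsk (9.35 ± 0.995), Ctsh (9.33 ± 0.460) and Ctsc (8.87 ± 0.196). The libraries of Ctsa and Ctsz overlapped in FPKM, as did those of Ctsk and Ctsh and of Ctsh and Ctsc, so these neighbours do not differ beyond their spread. In DMSO the order was Ctsd (185.7 ± 0.0678), Ctsb (51.7 ± 1.45), Ctsl (47.2 ± 1.30), Ctsc (34.3 ± 1.45), Ctsa (31.0, from 29.9 to 32.3), Ctsz (27.3 ± 1.02), Ctsf (15.1 ± 0.489), Ctsh (4.55 ± 0.319), Ctsk (0.790 ± 0.0242) and Ctss (0.236 ± 0.210), with no overlap between neighbours. Ctsc thus stood at place 10 in PluriSIn#2 and at place 4 in DMSO, and Ctsf at place 4 in PluriSIn#2 and place 7 in DMSO. The gene length behind the FPKM is unknown here, and it matters for the order. The FPKM and counts of Ctsl imply a length of about 2010 bases, whereas all its annotated exons together span 6489 bases. With counts per exonic length in place of FPKM, Ctsd and Ctsb stayed on top in both groups, Ctsz moved to place 3, Ctsc stood at place 9 in PluriSIn#2 and place 5 in DMSO, Ctsf at place 5 and place 7 in the same order, and Ctsl to place 4 in PluriSIn#2 and place 6 in DMSO.

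Several lysosomal genes are known to carry an E-box, the motif CACGTG, often extended to TCACGTGA, which TFEB and its relatives TFE3 and MITF bind. RefSeq promoter windows of GRCm38.p6, 250 bases before to 50 after each annotated start, were found for 8 of the 10 genes; Ctsb and Ctsh had none. CACGTG, which reads the same on both strands, was present in the windows of 4 of the 8 genes (Ctsa, Ctsd, Ctsf and Ctsl), and in those of 8.09% of 27025 genes with a window. TCACGTGA, also the same on both strands and a part of the first count, was present for 2 of the 8 (Ctsa and Ctsd), and for 1.12% of genes. The 250 bases before the start are shown for the 4 genes that rose and hold CACGTG, and for Ctss, which rose most, and Ctsc, which fell, where the motif is absent. Capitals mark CACGTG with a flanking T before or A after it.
Ctsd (chr7:142387828-142388077, minus strand): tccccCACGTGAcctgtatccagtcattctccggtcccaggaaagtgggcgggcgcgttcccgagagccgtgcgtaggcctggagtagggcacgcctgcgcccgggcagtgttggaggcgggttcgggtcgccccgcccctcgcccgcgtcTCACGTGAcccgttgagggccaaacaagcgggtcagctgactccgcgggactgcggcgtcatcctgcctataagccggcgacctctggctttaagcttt
Ctsf (chr19:4854915-4855164, plus strand): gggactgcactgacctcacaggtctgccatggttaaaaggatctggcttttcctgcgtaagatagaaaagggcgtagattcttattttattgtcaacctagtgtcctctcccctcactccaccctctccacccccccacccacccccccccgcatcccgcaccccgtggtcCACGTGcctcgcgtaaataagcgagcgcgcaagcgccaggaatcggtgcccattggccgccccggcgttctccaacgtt
Ctsa (chr2:164833523-164833772, plus strand): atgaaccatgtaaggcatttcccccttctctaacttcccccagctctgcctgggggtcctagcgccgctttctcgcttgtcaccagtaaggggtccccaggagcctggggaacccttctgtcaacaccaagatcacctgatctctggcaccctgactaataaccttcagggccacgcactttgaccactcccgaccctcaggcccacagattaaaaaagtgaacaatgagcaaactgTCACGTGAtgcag
Ctsl (chr13:64370521-64370770, minus strand): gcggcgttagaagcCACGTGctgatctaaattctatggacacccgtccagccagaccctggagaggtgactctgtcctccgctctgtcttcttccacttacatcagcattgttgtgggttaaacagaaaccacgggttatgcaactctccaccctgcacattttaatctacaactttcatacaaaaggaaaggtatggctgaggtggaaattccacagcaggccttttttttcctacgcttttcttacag
Ctss (chr3:95526536-95526785, plus strand): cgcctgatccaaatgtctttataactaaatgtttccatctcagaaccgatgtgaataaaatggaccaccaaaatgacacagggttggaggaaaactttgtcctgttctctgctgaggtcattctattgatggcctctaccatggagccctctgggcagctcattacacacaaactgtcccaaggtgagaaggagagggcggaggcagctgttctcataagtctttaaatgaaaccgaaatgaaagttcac
Ctsc (chr7:88277835-88278084, plus strand): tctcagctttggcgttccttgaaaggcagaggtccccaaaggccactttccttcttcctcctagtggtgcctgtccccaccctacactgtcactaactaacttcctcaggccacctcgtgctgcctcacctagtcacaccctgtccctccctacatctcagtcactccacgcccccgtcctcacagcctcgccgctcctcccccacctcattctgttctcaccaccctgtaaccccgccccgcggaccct
In Ctsd the motif begins 245 and 98 bases before the start, in Ctsf 79 bases and in Ctsa 12 bases before it, and a second Ctsa motif begins at base 6 after the start, outside the printed stretch. The Ctsa window belongs to a start 900 bases inside the GENCODE gene span, and its other window held no motif. The Ctsl motif begins 236 bases before a start that lies 370 bases inside the gene span. The Ctsd start lies 211 bases inside its span, so the motif at 98 bases is within the span and that at 245 outside. The Ctsf start lies 35 bases inside its span. The windows of Ctsc, Ctss, Ctsk and Ctsz hold no CACGTG. A match is a description of the letters in these windows, and binding was not measured.

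Genes for 3 of the 4 factors of this family were tested, and all 3 rose. Tfeb had 37.0 ± 2.47 CPM in PluriSIn#2 and 15.6 ± 1.54 CPM in DMSO (log2 fold change 1.24, SE 0.072), and Mitf, its relative known from pigment cells and osteoclasts, 24.3 ± 1.16 CPM in PluriSIn#2 and 11.2 ± 0.308 CPM in DMSO (log2 fold change 1.12, SE 0.084; SD, n = 3 each). Tfe3, chosen after its values were seen, rose by 0.50 on the log2 scale. Tfec, another member of this group, had 32 reads in PluriSIn#2 and 0 in DMSO and was not tested. Of the 20 genes for these factors and for the mTORC1 arm that holds them in the cytoplasm, 19 were tested, 10 were called higher, 6 lower and 3 not called, near the 41.7% higher and 40.9% lower over all tested genes, with a median log2 fold change of 0.12. The limma settings on FPKM called 3 of them lower. The most abundant, the kinase gene Mtor, fell by 0.14 on the log2 scale, and Fnip2, a folliculin partner, had the largest fall (-0.80), followed by the Ragulator subunit gene Lamtor5 (-0.34).

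Few genes on the list of cystatins and other inhibitors were measured. Of 26 cystatins and other inhibitor genes in the table, 6 were tested, 5 were called higher (41.7% over all tested genes), none lower and Serpinb1a was not called (1.10 CPM in PluriSIn#2 and 1.05 CPM in DMSO). Cst6, 1 of the 5, passed the filter only through PluriSIn#2. The 6 were Cst3, Cst6, Cstb and the serpin genes Serpina3n, Serpinb1a and Serpinb6a. Their median log2 fold change was 1.56. Whether the serpins act on the cathepsins of the set was not tested. Cst3, which encodes the secreted cystatin C of astrocytes and other cells, was by far the most abundant, at 1667, 1702 and 1692 CPM in PluriSIn#2, against 564, 538 and 555 CPM in DMSO. Its log2 fold change was 1.61 (SE 0.020, edgeR adjusted p = 2.35e-78). The serpin genes Serpina3n (2.40) and Serpinb6a (1.90) had the largest rises on the log2 scale. Cst7, the cystatin of activated microglia, had 0 reads in PluriSIn#2 and 6 in DMSO and was not tested. It was named after its values were seen.

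Of 12 other lysosomal proteases and cathepsin partners, 11 were tested, 7 called higher, 3 lower and 1, Galns, not called (log2 fold change -0.12), beside 41.7% higher and 40.9% lower over all tested genes. The median log2 fold change of the list was 0.61. Psap, whose product is cut by Ctsd into the saposins, had 3201 ± 8.77 CPM in PluriSIn#2 and 1022 ± 16.6 CPM in DMSO (log2 fold change 1.65, SE 0.018; SD, n = 3 each). Cpq, a lysosomal and secreted metallopeptidase gene, had the largest rise (1.71). Prcp, a serine carboxypeptidase, had the largest fall, with 20.9 ± 1.13 CPM in PluriSIn#2 and 55.5 ± 0.522 CPM in DMSO (log2 fold change -1.41, SE 0.060). Glb1, the beta-galactosidase of the complex with Ctsa, fell by 0.56 on the log2 scale. Neu1, the neuraminidase of the same complex, rose by 0.19, and Lgmn, the asparaginyl protease that processes cathepsin precursors, rose by 1.17. Both were named after their values were seen.

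Genes for delivery to the lysosome were called in either direction at about the rate of all tested genes. Of 18 sorting receptors, adaptors and mannose 6-phosphate enzymes, 9 were called higher, 7 lower and 2 not called, beside 41.7% and 40.9% of all tested genes, and their median log2 fold change was 0.07. The endocytic receptor gene Lrp1, the most abundant, had 936 ± 18.3 CPM in PluriSIn#2 and 400.3 ± 12.1 CPM in DMSO (log2 fold change 1.23), and the sorting receptor gene Sorl1 rose by 1.12. The adaptor genes Gga2 (-1.03) and Ap1m1 (-0.83) had the largest falls. The mannose 6-phosphate receptor genes M6pr (0.09) and Igf2r (0.20), named after their values were seen, were both called higher, with small values.

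Of 24 vacuolar ATPase genes, which encode the proton pump, 19 were tested, 18 called higher and 1 lower, against 41.7% and 40.9% of all tested genes, with a median log2 fold change of 0.50. The most abundant, the catalytic subunit gene Atp6v1a, rose by 0.19 on the log2 scale, to 243 ± 7.16 CPM in PluriSIn#2, against 213 ± 4.94 CPM in DMSO (SD, n = 3 each). Atp6v0b rose by 0.82, the most among the 17 genes above the filter in every library. Atp6v0d2, a subunit gene of osteoclasts and macrophages, had 192 reads in PluriSIn#2 and 6 in DMSO. It passed the filter only through PluriSIn#2, which set its direction (fitted log2 fold change 4.95). The gene that fell, Atp6v1e2, known from testis, had 25 reads in PluriSIn#2 and 56 in DMSO, passed the filter only through DMSO, and its call ended without PluriSIn#2 replicate 3. The 5 pump genes that did not pass the filter, Atp6v0a4, Atp6v0c, Atp6v1b1, Atp6v1c2 and Atp6v1g3, were not tested, so these counts leave them out.

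Cathepsin genes outside the set were mostly silent. Of 15 such genes and relatives, 3 were tested. Ctso, a papain-like protease made in many tissues, rose to 53.8 ± 0.997 CPM in PluriSIn#2, against 29.2 ± 2.33 CPM in DMSO (log2 fold change 0.88, SE 0.057; SD, n = 3 each). Tinagl1, a secreted relative without protease activity, rose by 2.04 on the log2 scale, with 229 reads in PluriSIn#2 and 57 in DMSO. Ctsw, a cathepsin of cytotoxic lymphocytes, was not called (37 reads in PluriSIn#2 and 21 in DMSO). The rodent placental cathepsin genes Cts3, Cts6, Cts7, Cts8, Ctsj, Ctsm, Ctsq and Ctsr, together with Ctsg and Tinag, had no read in any library.

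**Figure D5:**
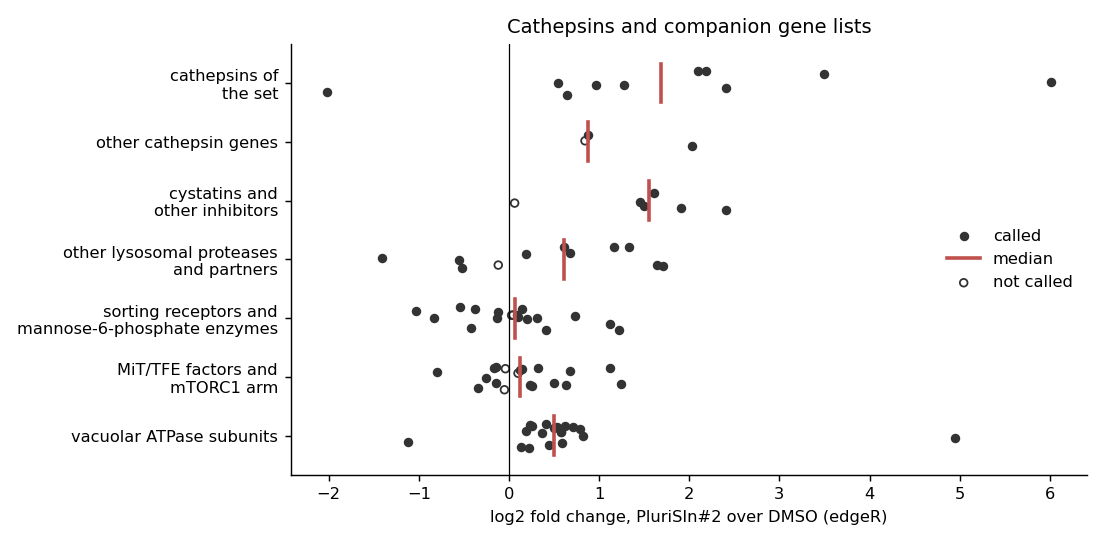
Log2 fold change of PluriSIn#2 over DMSO for each tested gene (1 point each) of the cathepsin set and of 6 lists of related genes, with a line at the median of each list. The cathepsins have a median of 1.69, and the list of cystatins and other inhibitors has one of 1.56. The proton pump genes have a median of 0.50, and the sorting genes of 0.07.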

How the data were processed

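RNA of 6 libraries was sequenced, and the submitters' processing notes name STAR, HTSeq, DESeq and the build mm10; their versions, the annotation and the strand setting were not given in the sources used here. In the deposited count table are raw read counts per gene symbol. The deposited FPKM table gives, by the authors, expression per gene length and depth, with the authors' own log2 fold changes and p-values; 25 gene names turned into dates there were left out. Columns named P2 were read as PluriSIn#2, from the titles.

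The tests used edgeR 4.0.16 (R 4.3.3): filterByExpr, TMM, and the two-sided quasi-likelihood F test on group alone. The p-values were adjusted by Benjamini-Hochberg over 14417 genes, and genes under 0.05 were called. SE is the log2 fold change divided by the square root of F. DESeq2 1.42.0 and limma 3.58.1, on log2(FPKM + 1) with a filter of 0.5 FPKM in 3 libraries, were alternatives, with those under the closing section. The script was also run on simulated data with known changes, in which few genes changed and all of those rose. Such data do not cover changes in most genes and in both directions, as found here. Replicate pairs differed by 1.56 to 2.22 per degree of freedom in a chi-square test of counts, more than sampling noise. Counts cover 16670962 to 19241869 reads per library, which sets counting error only, and genes with few reads are measured coarsely.

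The members, the gene lists and the tests were chosen with earlier results of these data known. Named beyond the 10 cathepsins and Top2a were, per pathway list, the most abundant gene and, of the called genes, the 2 that rose most and the 2 that fell most, and per marker list the most abundant gene and markers with at most 3 reads in a group; other names are stated as such or come from these lists. The most abundant gene of a list is the one with the most mean CPM, which does not allow for gene length. Lists are described by counts, with no set test. Promoters are from RefSeq, GRCm38.p6. A comparison of the proteins' sequences was not done.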

Additional observations from a re-analysis of the deposited data

How the results depend on the processing

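The direction and call of each of the 10 cathepsin genes were the same under all 16 alternatives: 2 other scalings, DESeq2, 2 other filters on counts, 3 settings of limma on FPKM, the replicate block, leaving out each of 6 libraries, and treated replicate 1 alone. The log2 fold change of Ctss ran from 3.81 with limma on log2(FPKM + 1) to 6.99 without DMSO replicate 1, and that of Ctsk from 2.53 to 3.57; the other 8 moved little, as for Ctsd (2.16 to 2.26) and Ctsc (-2.06 to -1.84). Genes called higher numbered between 5461 and 6856 and genes called lower between 5282 and 6073. Deviations of same-numbered libraries were hardly correlated (0.0134, 0.0293 and -0.00250). Treated replicates 1 and 2 correlated best with the DMSO library of the same number, and treated replicate 3 with DMSO replicate 1. Values this small in 3 libraries per group cannot settle whether the numbers mark pairs. With the replicate block 5984 genes were called higher and 5867 lower, and it changed no call of a cathepsin.

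Few list counts moved. Inhibitor genes called higher numbered 8 with DESeq2, without a filter on low counts and with limma on FPKM without a filter, where more genes were tested. Genes of the MiT/TFE and mTORC1 list called lower numbered 3 in each of the 3 limma settings, and the cause was not tested. The vacuolar ATPase gene called lower was lost (0 called) with DESeq2, with a filter at 1 CPM, which left it untested, and with treated replicate 1 alone, and ranged from 0 to 1 when single libraries were left out. Osteoclast markers called higher numbered 2 with limma without a filter, and oligodendrocyte lineage markers called higher 1 with treated replicate 1 alone.

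Shares of the summed level depend on the gene length, and each share's direction between groups was the same with counts per exonic length as with FPKM. With exonic length, shares were 67.2% in PluriSIn#2 and 55.2% in DMSO for Ctsd, 16.6% and 14.5% for Ctsb, 3.33% and 5.13% for Ctsl, 3.01% and 2.12% for Ctsf, 0.344% and 5.22% for Ctsc, 3.89% and 9.33% for Ctsz, 0.307% and 0.587% for Ctsh, 0.894% and 0.296% for Ctsk. Those of Ctsa and Ctss in PluriSIn#2 were 2.95% and 1.48%. In the 250 bases before the start, the motif counts of the set were the same, at 6.86% and 0.907% of genes for CACGTG and TCACGTGA.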
